A study of Rattus norvegicus with 6 samples.

Results

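Of the 7 genes described here, Myl3, Myl4, Tnnc1, Nexn, Fhl2 and Myom2 encode parts of the sarcomere and its Z-disc. The remaining gene, Xirp1, encodes an actin-binding protein found at the intercalated discs of heart muscle. All 7 were taken by gene name from a table of 1756 genes. They were chosen by role, as light chains, troponin C, actin-binding and Z-disc proteins and an M-band protein, with the myosin heavy chains set apart. The cells were neonatal rat ventricular cardiomyocytes (NRVCs), heart muscle cells from the left ventricles of 2 to 3 day old Harlan Sprague–Dawley rats, separated by pre-plating, with no purity given in the sources. They were given ARVs, a cocktail of the antiretroviral drugs Ritonavir, Abacavir, Atazanavir and Lamivudine at 5 µM, or DMSO, the solvent, for 24 h. The sources do not say whether the dose is that of each drug or of the mixture. RNA sequencing gave 3 libraries of each treatment, and no source says whether each had its own cell preparation, so the spread behind the p-values may be technical. A gene entered the table by passing the authors' own test on these 6 libraries, so the tests below show how large and how even a change was and add no independent evidence for it. Other genes were not analysed here.

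In the sarcomere, thick filaments of myosin pull on thin filaments of actin. The thin filaments are anchored in the Z-discs at the 2 ends of the sarcomere, and the thick filaments are held in register by the M-band in its middle. Calcium starts contraction by binding to troponin C on the thin filament, and the essential light chains stiffen the lever arm of the myosin head. Ventricles around birth still exchange fetal for adult forms of several of these proteins, and Myl4 is the atrial and embryonic counterpart of the ventricular light chain Myl3.

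With ARVs, Myom2, which encodes the M-band protein myomesin 2, rose 1.73-fold, while the other 6 genes were 11.6% to 13.9% lower in mean normalized count. These falls were near one another in size, with log2 fold changes from -0.22 to -0.18. They depend on how the libraries are scaled, and under median-ratio factors they lay between -0.02 and 0.02. Those factors were taken from the listed genes, all of them called by the authors, and draw the median change of these genes towards 0. The rise of Myom2 relative to each of the other 6 genes, by 1.96- to 2.01-fold, was a ratio within each library and does not rest on the scaling.

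The regions before the start sites of the genes are shown as a description. Of the genes, 6 moved by nearly the same amount, but so did other genes of the table, and shared regulation was not tested. RefSeq promoter windows on the GRCr8 build were found for 5 of the 7 genes, with 8 windows in all, one for each annotated start, and the 250 bases before the start were read. The first window is given 5′ to 3′ for both light chains, Myl3 (chr8:119616844-119617093, plus strand) and Myl4 (chr10:89975900-89976149, plus strand), for Xirp1 (chr8:128635012-128635261, minus strand) and for Fhl2 (chr9:52954541-52954790, minus strand). Capitals mark matches, on either strand, to the CArG box of serum response factor, the MEF2 site, the MCAT element CATTCC of TEAD factors and the E-box CAGCTG of muscle basic helix-loop-helix factors.
Myl3: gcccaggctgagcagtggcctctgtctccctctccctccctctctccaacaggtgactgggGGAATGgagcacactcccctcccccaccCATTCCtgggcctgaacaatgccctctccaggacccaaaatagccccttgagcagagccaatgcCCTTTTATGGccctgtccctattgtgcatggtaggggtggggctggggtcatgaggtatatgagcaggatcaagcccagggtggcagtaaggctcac
Myl4: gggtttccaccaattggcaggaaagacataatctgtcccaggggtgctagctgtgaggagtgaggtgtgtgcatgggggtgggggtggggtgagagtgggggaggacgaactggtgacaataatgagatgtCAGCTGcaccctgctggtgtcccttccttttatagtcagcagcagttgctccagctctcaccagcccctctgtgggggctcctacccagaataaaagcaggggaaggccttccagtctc
Xirp1: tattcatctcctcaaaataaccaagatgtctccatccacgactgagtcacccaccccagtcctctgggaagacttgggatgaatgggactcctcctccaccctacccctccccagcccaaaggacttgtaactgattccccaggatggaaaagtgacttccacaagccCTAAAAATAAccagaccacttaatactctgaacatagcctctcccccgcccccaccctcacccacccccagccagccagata
Fhl2: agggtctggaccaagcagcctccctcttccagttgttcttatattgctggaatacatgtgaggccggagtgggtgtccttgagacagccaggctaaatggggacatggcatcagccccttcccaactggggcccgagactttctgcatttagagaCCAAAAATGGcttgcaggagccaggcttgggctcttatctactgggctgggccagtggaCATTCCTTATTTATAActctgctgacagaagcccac

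A CArG box lay 97 to 88 bases before the start of Myl3 and 95 to 86 bases before that of Fhl2, and another in the second window of Fhl2. The MEF2 match of Xirp1 lay 82 to 73 bases before its first start and was also in its second window, and an E-box was in the last of its windows. In Fhl2, a MEF2 match followed directly on an MCAT match, 30 to 21 bases before the start. Myl3 had 2 MCAT matches, the window of Nexn had an MCAT match and an E-box, and the window of Myl4 had an E-box alone. Over all 33469 rat windows of this length in the set, a CArG box was found in 1.5%, a MEF2 site in 2.96%, MCAT in 12.1% and the E-box in 12%. A match describes the letters of the window and is not evidence that a factor binds there. The windows are on another genome build than the table, whose gene positions, given with each gene below, are those of the authors' reference release 97.

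The normalized counts used here are the authors' read counts divided by their size factor for each library. The libraries held 4329218 to 5871352 counts on listed genes, out of totals of 17347680 to 22126119 derived from the FPKM values (fragments per gene length and library size). The 7 genes together took 0.700%, 0.725% and 0.721% of the library totals in the DMSO libraries and 0.673%, 0.670% and 0.651% in the ARVs libraries, in the order of replicates 1, 2 and 3. DMSO replicate 2 stood apart over the listed genes. Its chi-square distance per degree of freedom was 29.3 to DMSO replicate 1 and 32.0 to replicate 3, whereas other pairs of libraries given the same treatment had 4.84 to 6.44, and no cause was tested. ARVs were compared with DMSO by the quasi-likelihood test of edgeR on raw counts. The Benjamini-Hochberg adjustment covered 1751 genes kept by a filter on low counts, the 7 genes among them. At an adjusted p of 0.05 the test called 6 of the 7 genes lower, where it called 60.1% of all genes tested lower, and 1 higher, where it called 39.9% of all genes higher. Every gene tested was thus called in one direction or the other, and the calls of the 7 genes are no more than the table gives for any gene. In bulk RNA, fewer cells of a type and less RNA per cell cannot be told apart.

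Myl3 (ENSRNOG00000020955, chromosome 8, 119030875 to 119036996, plus strand), the essential light chain of ventricular and slow skeletal myosin, had normalized counts of 65935, 69832 and 67003 in the DMSO libraries and of 60276, 59530 and 58776 in the ARVs libraries, by replicate number. All 3 ARVs libraries were below all 3 DMSO libraries, and they lay closer to one another than the DMSO libraries did. The mean went from 67590 ± 2014 to 59527 ± 750 (SD, n = 3 each), 11.9% lower, and the log2 fold change was -0.18 ± 0.04 (SE) with an adjusted p of 0.00411 from edgeR.

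Myl4 (ENSRNOG00000050675, chromosome 10, 92628356 to 92638100, plus strand), the atrial and embryonic essential light chain, had normalized counts of 4567, 4851 and 4711 in the DMSO libraries and of 4233, 3809 and 4125 in the ARVs libraries, by replicate number. The groups did not overlap, and ARVs replicate 2 was the lowest library. The log2 fold change was -0.22 ± 0.05 (SE), with an adjusted p of 0.00502 from edgeR, from a mean of 4710 ± 142 to 4056 ± 221 (SD, n = 3 each).

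With the authors' factors the atrial and the ventricular light chain were lower by similar amounts, and their ratio does not rest on the scaling. In FPKM, Myl4 was 7.86%, 7.88% and 7.98% of Myl3 in the DMSO libraries and 7.97%, 7.26% and 7.96% in the ARVs libraries, by replicate number. Apart from ARVs replicate 2, the ratio was nearly the same in all libraries. The log2 ratio of Myl4 to Myl3 counts differed by -0.0338 between the groups (p = 0.8, two-sided exact permutation test over libraries, where 0.1 is the smallest p that 3 against 3 allow), and without ARVs replicate 2 by 0.0109.

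Tnnc1 (ENSRNOG00000018943, chromosome 16, 7292096 to 7295465, plus strand) encodes the cardiac and slow skeletal troponin C, the calcium sensor of the thin filament. Its normalized counts were 36820, 36748 and 38848 in the DMSO libraries and 33753, 33636 and 31980 in the ARVs libraries, by replicate number. The groups did not overlap, with DMSO replicate 3 the highest library and ARVs replicate 3 the lowest. The mean fell from 37472 ± 1192 to 33123 ± 992 (SD, n = 3 each), which is a log2 fold change of -0.18 ± 0.05 (SE) with an adjusted p of 0.0057 from edgeR.

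Nexn (ENSRNOG00000012512, chromosome 2, 257453347 to 257484587, minus strand) encodes nexilin, which binds actin filaments at the Z-disc. It had normalized counts of 11249, 9890 and 10860 in the DMSO libraries and of 9632, 8820 and 9681 in the ARVs libraries, by replicate number. DMSO replicate 2 was the lowest of its group and only 2.16% above the highest ARVs library. The log2 fold change was -0.19 ± 0.06 (SE), with an adjusted p of 0.0167 from edgeR, from 10666 ± 700 to 9377 ± 484 (SD, n = 3 each). The call was lost without DMSO replicate 1 (adjusted p = 0.0671 from edgeR) and without ARVs replicate 2 (adjusted p = 0.0737 from edgeR).

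Xirp1 (ENSRNOG00000037085, chromosome 8, 128702133 to 128711221, minus strand) encodes a protein with Xin repeats, which bind and bundle actin filaments, and is found at the intercalated discs of heart muscle. Its normalized counts were 8646, 7402 and 8547 in the DMSO libraries and 6858, 7373 and 7190 in the ARVs libraries, by replicate number. DMSO replicate 2 stood with the ARVs libraries, only 0.392% above the highest of them, and in FPKM it lay below ARVs replicate 2, at 63.3 against 64.2, so that the groups overlapped on that scale. The mean went from 8198 ± 692 to 7140 ± 261 (SD, n = 3 each), which is a log2 fold change of -0.20 ± 0.07 (SE) with an adjusted p of 0.0166 from edgeR. The adjusted p from edgeR was 0.0661 without DMSO replicate 1, 0.0516 without DMSO replicate 3 and 0.0685 without ARVs replicate 1, which ended the call in each case.

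Fhl2 (ENSRNOG00000016866, chromosome 9, 49920854 to 49950093, minus strand) encodes a protein of LIM domains that sits at the Z-disc and I-band and also acts as a cofactor of transcription. It had normalized counts of 7355, 6531 and 7226 in the DMSO libraries and of 6338, 5916 and 5997 in the ARVs libraries, by replicate number. The groups did not overlap, and DMSO replicate 2 was again the lowest of its group. The log2 fold change was -0.21 ± 0.06 (SE), with an adjusted p of 0.00733 from edgeR, from 7037 ± 443 to 6084 ± 224 (SD, n = 3 each).

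Myom2 (ENSRNOG00000011754, chromosome 16, 79587640 to 79671719, minus strand) encodes the M-protein, which links thick filaments at the M-band. Its normalized counts were 5248, 5656 and 4940 in the DMSO libraries and 9461, 8703 and 9230 in the ARVs libraries, by replicate number. Each ARVs library lay far above the highest DMSO library, a gap wider than the whole range of either group. The mean rose from 5281 ± 359 to 9131 ± 389 (SD, n = 3 each), which is a log2 fold change of 0.79 ± 0.06 (SE) with an adjusted p of 4.0e-05 from edgeR. Leaving out each library in turn moved the log2 fold change between 0.74 and 0.84, and Myom2 was called in each case.

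**Figure D1:**
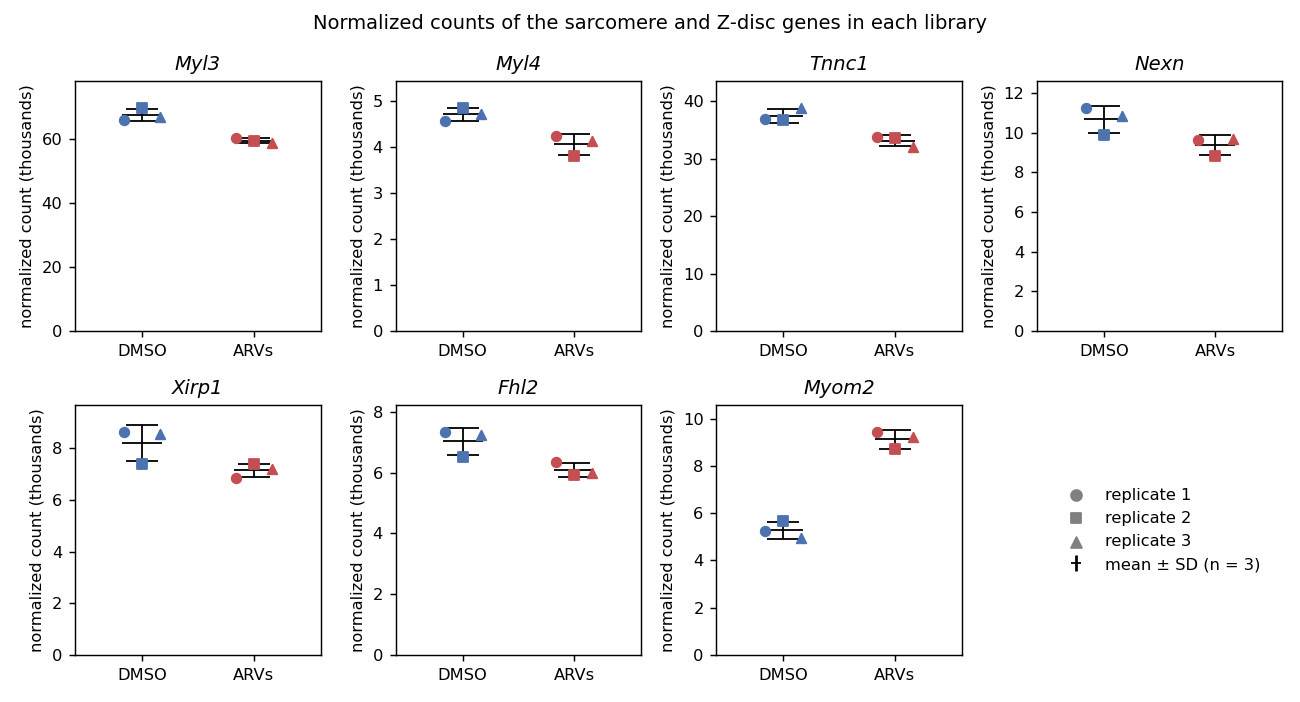
Normalized counts (vertical axes starting at 0, in units of 1000) of the 7 genes in the 3 DMSO and 3 ARVs libraries, with a point for each library, its shape giving the replicate, and bars for mean ± SD (n = 3). Of the 6 genes with lower means under the authors' scaling, Xirp1 has the narrowest gap between groups, while Myom2 is higher in all 3 ARVs libraries.

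The normalized counts of no gene of the 7 overlapped between the groups, 6 being lower and 1 higher with ARVs. Over the whole table, 56.7% of genes were lower with no overlap and 39.2% were higher, so this too is near what the table shows for any gene. The changes of the 6 lower genes were small beside those of most of the table. The 1052 genes called lower had a median log2 fold change of -0.47, and only 28 of them fell by less than Tnnc1, 37 by less than Myl3, 42 by less than Nexn, 70 by less than Xirp1, 96 by less than Fhl2 and 107 by less than Myl4. The median of the 6 was -0.19, against -0.25 over all genes tested. Myom2 lay towards the other end, since 51 of the 699 genes called higher rose by more, and the median of those genes was 0.32.

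The log2 fold changes of the 6 genes spanned 0.0379, less than the standard error of any of them, 0.0427 to 0.0662. Ratios between genes of the same library show the same thing without any scaling of libraries. Of the 15 pairs among the 6 genes, none had ratios that did not overlap between the groups, and the differences of the mean log2 ratios lay between -0.0387 and 0.0308. Against each of the 6 genes, Myom2 rose by 0.97 to 1.01 on the log2 scale, with no overlap in any of the 6 pairs. The log2 ratio of Myom2 to Myl3 counts was -3.65, -3.63 and -3.76 in the DMSO libraries and -2.67, -2.77 and -2.67 in the ARVs libraries, by replicate number. The difference of 0.97 had p = 0.1, the smallest that the two-sided exact permutation test allows with 3 against 3 libraries. Per length, Myom2 amounted to 1.47% to 1.62% of the FPKM of Myl3 with DMSO and 2.92% to 3.14% with ARVs.

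**Figure D2:**
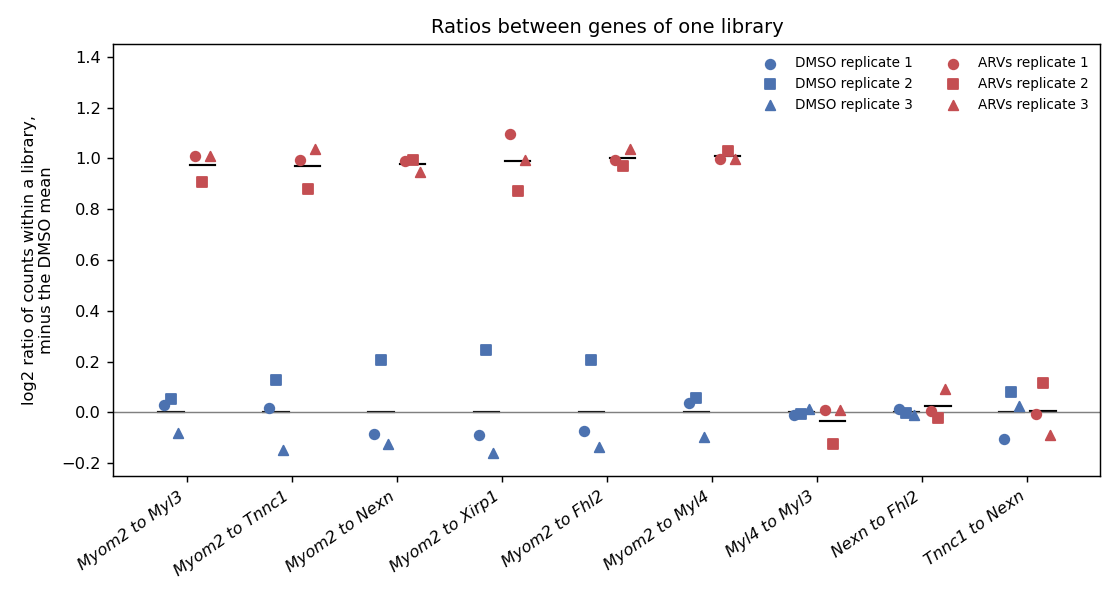
Log2 ratio of the counts of pairs of genes within each library, minus the DMSO mean of that ratio, with a point for each library and a black line for each group mean. The 6 ratios with Myom2 lie about 1 log2 unit higher with ARVs, while the 3 ratios without it that are drawn overlap between the groups.

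The calls of the 6 falls depended on the library scaling. With median-ratio factors Myl3, Tnnc1, Nexn and Xirp1 lay above 0 and Myl4 and Fhl2 below it. Each of these values was smaller than its standard error, so their signs do not set the 6 genes apart. Myom2 stayed above 0 under each scaling. With library totals derived from the FPKM values, the 6 genes had log2 fold changes from -0.19 to -0.15 and edgeR called all of them (adjusted p = 0.00859 to 0.0244), where it called 59.9% of all genes lower and 39.9% higher. With TMM factors over the listed genes, the values lay between -0.12 and -0.08 and edgeR called 0 of the 6 (adjusted p = 0.0522 to 0.161, with an unadjusted p under 0.05 for 1), where it called 50.4% of all genes lower. With median-ratio factors from the same genes edgeR again called 0 (adjusted p = 0.697 to 0.966, with an unadjusted p under 0.05 for 0), where it called 30.6% of all genes lower. Relative to the authors' factors, the fold changes of all genes lay higher by a median of 0.0279 with FPKM totals, 0.0959 with TMM and 0.199 with median-ratio factors. The share of genes called higher stayed at 39.9% under TMM and under median-ratio factors, and Myom2 was among them with log2 fold changes of 0.89 and 0.99. TMM and median-ratio factors were computed on a table of called genes, which took 26.0% to 26.6% of the library totals with DMSO and 25.0% to 25.2% with ARVs. Such factors draw the middle of the listed changes towards 0. The median log2 fold change of all genes tested was -0.25 with the authors' factors, -0.16 with TMM and -0.055 with median-ratio factors. The 6 falls lie near that middle, so these 2 scalings cannot decide whether the 6 genes fell. Which scaling is nearer the truth was not tested.

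**Figure D3:**
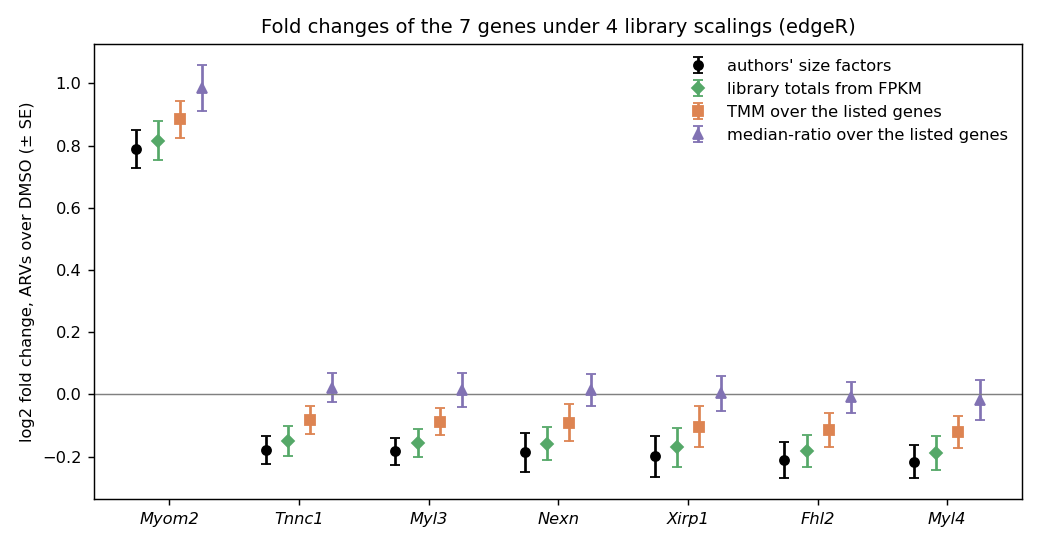
Log2 fold change of ARVs over DMSO (± SE, edgeR, 3 libraries each) for the 7 genes under 4 ways of scaling the libraries. Myom2 lies between 0.79 and 0.99 under each. The other 6 genes lie at -0.22 to -0.18 with the authors' factors. With median-ratio factors they lie at -0.02 to 0.02, each within its SE of 0.

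In DMSO replicate 2 the 7 genes did not shift together. Against the mean of DMSO replicates 1 and 3, Nexn was 10.5% lower in it, Xirp1 13.9% and Fhl2 10.4%. Tnnc1 was 2.87% lower, whereas Myl3 was 5.06%, Myl4 4.58% and Myom2 11.0% higher. Nexn, Xirp1, Fhl2 and Tnnc1 were thus lower in this library, and both light chains and Myom2 higher. This was no split by role among the sarcomere genes described below. Of other Z-disc genes, Ankrd1, Pdlim1, Pdlim5, Pdlim7 and Cavin4 were highest of the DMSO libraries in replicate 2, and Hspb7 and Fbxl22 lowest. Myl1, another light chain, was also lowest in it. Without this library, the log2 fold changes were -0.27 for Xirp1, -0.26 for Fhl2, -0.24 for Nexn, -0.19 for Tnnc1, -0.19 for Myl4, -0.16 for Myl3 and 0.84 for Myom2, and edgeR called each of the 7, where it called 59.9% of all genes lower and 40.0% higher.

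**Figure D4:**
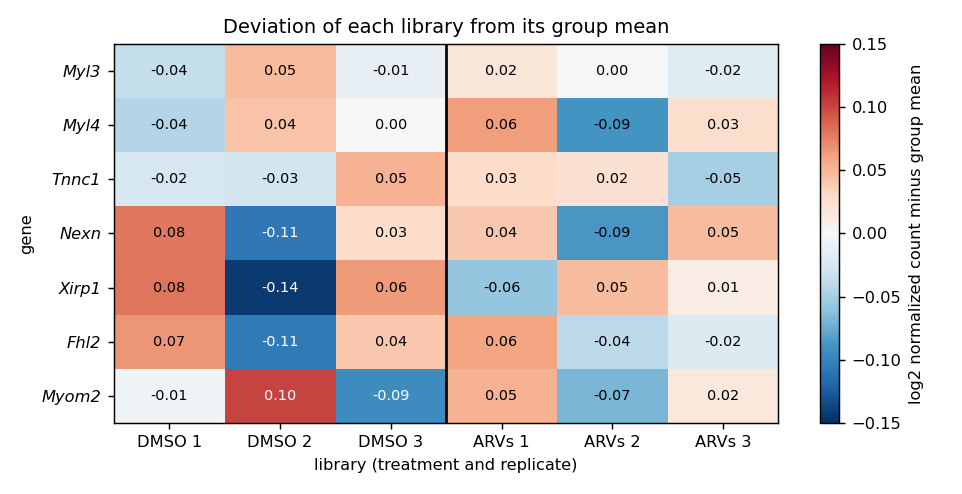
Log2 normalized count of each gene in each library minus the mean of its treatment group, for the 3 DMSO and 3 ARVs libraries, with red above and blue below the mean. In DMSO replicate 2, Nexn, Xirp1 and Fhl2 lie 0.11 to 0.14 below their group mean, while Myom2 lies 0.10 above it.

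Levels per gene length were compared in FPKM. Myl3 was the most abundant of the 7, with a mean FPKM of 3805 ± 165 with DMSO and 3415 ± 65.3 with ARVs (SD, n = 3 each), and over the 6 libraries together 2 genes of the table had a higher mean FPKM. Tnnc1 followed at 2308 ± 78.4 and 2080 ± 80.0, then Fhl2 at 337 ± 17.1 and 297 ± 9.93, Myl4 at 301 ± 13.2 and 264 ± 11.9, and Nexn at 266 ± 14.0 and 238 ± 9.69. The DMSO libraries of each of these genes lay above those of the next in the order, and so did the ARVs libraries, although Fhl2 and Myl4 came close, at 317 in the lowest DMSO library of Fhl2 and 314 in the highest of Myl4. The place of Nexn is less certain, because its FPKM rests on 2036 bases rather than the 2317 bases the table lists, and on the listed length its means would be 234 and 209. Xirp1 and Myom2 were the lowest, at 69.1 ± 5.03 and 59.4 ± 4.59 with DMSO, and these overlapped between libraries. With ARVs the order of the pair was reversed without overlap, at 61.4 ± 2.73 for Xirp1 and 105 ± 3.52 for Myom2.

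None of the genes whose normalized counts were most like those of each of the 7 over the 6 libraries was on the lists of sarcomere genes used here. Likeness was the root mean square difference of centred log2 normalized counts, over 1713 genes with a mean of at least 50, and is a description only. Nearest to Myl3 were Cse1l, a nuclear export receptor, at 0.00907 and Hnrnpl, an RNA-binding protein, at 0.0174. Myl4 had Mgp, a matrix protein that limits calcification, at 0.0204 and Psmd12, a subunit of the proteasome, at 0.0293. Tnnc1 had Tspan3, a tetraspanin, at 0.0200 and Rara, a retinoic acid receptor, at 0.0215. Each of these had a log2 fold change close to that of the gene it is set beside.

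The second nearest gene to Nexn was Cdh13, a cadherin, at 0.0314. Fhl2 had Mtch2, a protein of the outer mitochondrial membrane, at 0.0194 and Isca1, which takes part in iron-sulfur cluster assembly, at 0.0230. Xirp1 had Gnao1, a G protein alpha subunit, at 0.0312 and Wfs1, a protein of the endoplasmic reticulum, at 0.0381. Among the 7 themselves, Nexn and Fhl2 were the nearest pair, at 0.0373, with Fhl2 in place 13 from Nexn and Nexn in place 21 from Fhl2. Myl3 and Tnnc1 lay 0.0440 apart, nearer than the light chains at 0.0482. Myl3 was in place 17 from Myl4, but Myl4 only in place 64 from Myl3, so many other genes lay nearer. The nearest genes to Myom2 were farther off, with Creb3l1, a transcription factor held in the endoplasmic reticulum membrane, at 0.0649 and the unnamed gene AABR07030598.1 at 0.0725. The closest 2 of the 7 genes on a chromosome, Myl3 and Xirp1, lay 9.67 Mb apart.

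Among 84 other sarcomere gene symbols on a list, myosin heavy chains apart, 15 were in the table. EdgeR called 8 of them lower and 7 higher, where it called 60.1% of all genes lower and 39.9% higher. Their median log2 fold change was -0.19, against -0.25 for all genes. With TMM factors the counts were 6 lower and 7 higher, where 50.4% of all genes were called lower. With median-ratio factors they were 3 lower and 7 higher, where 30.6% of all genes were called lower. Of the thick filament, 2 of 9 genes were in the table. Myl1, the fast skeletal essential light chain and a relative of Myl3 and Myl4, had normalized counts of 310.5, 169.8 and 283.5 with DMSO and of 116.6, 95.2 and 103.5 with ARVs, in the order of the replicates. The groups did not overlap, the log2 fold change was -1.28 (SE 0.23) against -0.18 and -0.22 for its relatives, and its mean level was 14.6 FPKM with DMSO. Mylk3, the cardiac kinase of the regulatory light chain, rose by 0.25 (SE 0.07).

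Of the thin filament, 4 of 20 genes were in the table. Tnni1, the slow skeletal and fetal cardiac troponin I, rose from 14909 ± 996 to 17913 ± 718 normalized counts (SD, n = 3 each), which is a log2 fold change of 0.26 (SE 0.06). Its partner Tnnc1 was lower with the authors' factors, but was not called with TMM or median-ratio factors. Tnni1 was called higher with both, at 0.36 and 0.46. Tnnt1, the slow skeletal troponin T, had a log2 fold change of -1.66 (SE 0.34), from a mean of 63.8 to 20.3 normalized counts. Tpm2, a tropomyosin, fell by 0.29 (SE 0.06) on the log2 scale and Cap2, which takes part in actin filament turnover, rose by 0.28 (SE 0.08). Tropomyosin and troponin genes thus moved in both directions.

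Of the Z-disc, 7 of 39 listed symbols were in the table, and the list holds Cavin4 also under its older symbol Murc. Ankrd1, a titin-binding ankyrin repeat protein of stretched heart muscle, rose from 116170 ± 13016 to 144422 ± 2652 normalized counts (SD, n = 3 each), which is a log2 fold change of 0.31 (SE 0.08). Fbxl22, an F-box protein of the Z-disc, rose by 0.31 (SE 0.08) and Pdlim5, a PDZ and LIM domain protein, by 0.25 (SE 0.06). Its relatives Pdlim1 and Pdlim7 were lower, with log2 fold changes of -0.32 (SE 0.05) and -0.25 (SE 0.08), so genes of this family did not move together. Cavin4, a muscle protein of caveolae, fell by 0.64 (SE 0.06) on the log2 scale. Hspb7, a small heat shock protein, had a log2 fold change of -0.19 (SE 0.05), near those of Fhl2 and Nexn, and of 0.0107 with median-ratio factors. Hspb7 and Pdlim7 were not called with TMM factors, and Pdlim1, Tpm2 and Fsd2 were not with median-ratio factors either.

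Of titin and the M-band, 2 of 16 genes were in the table beside Myom2. Smyd1, a muscle methyltransferase with a role in thick filament assembly, rose by 0.32 (SE 0.08), against 0.79 for Myom2. Fsd2 had a log2 fold change of -0.43 (SE 0.14) with groups that overlapped, and its call was lost without DMSO replicate 1 or ARVs replicate 2, as was that of Pdlim7. Of 8 myosin heavy chains, 3 were in the table. Myh7, the slow chain, rose by 0.51 (SE 0.05), and Myh6, the fast cardiac chain, and Myh1, a skeletal chain, had log2 fold changes of -0.88 (SE 0.12) and -1.58 (SE 0.36), with the reservation that these chains share long stretches of sequence and the counting could split their reads.

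**Figure D5:**
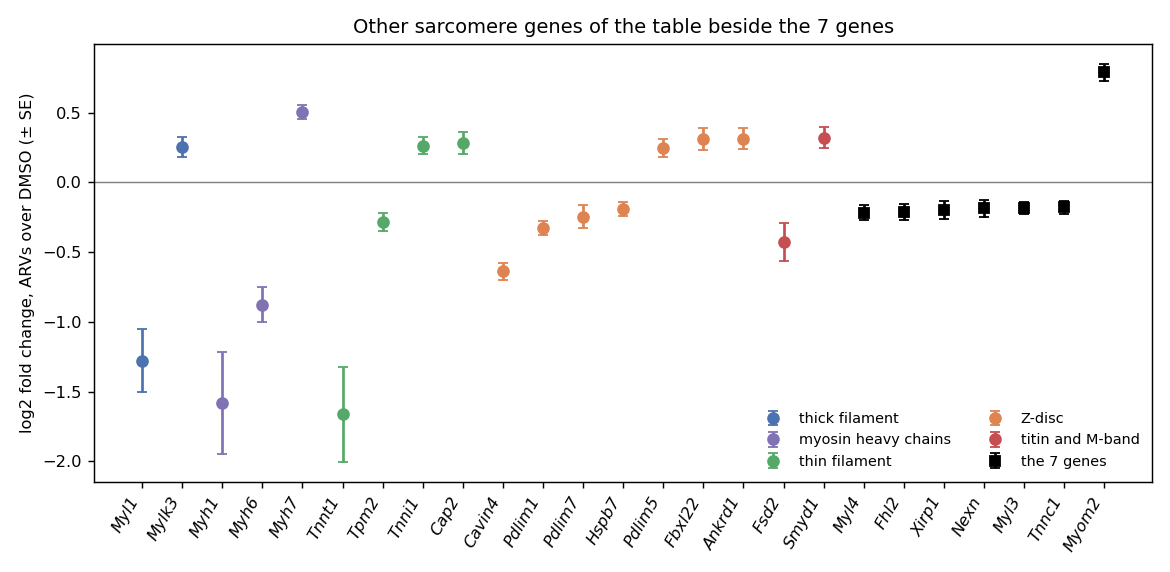
Log2 fold change of ARVs over DMSO (± SE, edgeR with the authors' size factors, 3 libraries each) for 15 other sarcomere genes and 3 myosin heavy chains, coloured by place in the sarcomere, beside the 7 genes in black. The other genes lie on both sides of 0, while 6 of the 7 lie together just below it. With median-ratio factors, not drawn here, each of these 6 lies within its SE of 0.

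Markers of other cell types moved in these libraries as well, and their part in the changes of the 7 genes was not tested. Of 14 cardiomyocyte markers, 5 were in the table, with 2 lower and 3 higher, and their summed FPKM was 22181 to 23869 with DMSO and 19977 to 21312 with ARVs. In this sum, Myh6 had a mean FPKM of 1498 with DMSO and 832 with ARVs, and Myh7 of 914 and 1324. Most of the sum thus came from Pln, Nppa and Nppb. Of 11 markers of smooth muscle and pericytes, 8 were in the table. With the authors' factors edgeR called 8 of 8 lower, where it called 60.1% of all genes lower. With median-ratio factors it called 6, where it called 30.6% of all genes lower. The 8 markers had summed FPKM of 4229 to 4927 with DMSO and 3038 to 3435 with ARVs. The 3 light chain genes and kinases of nonmuscle and smooth muscle myosin in the table, Mylk, Myl9 and Myl6, had log2 fold changes of -0.76, -0.51 and -0.17. Myl6 was not called with TMM factors (adjusted p = 0.264 from edgeR) or FPKM totals (adjusted p = 0.0531 from edgeR), and its log2 fold change was 0.03 with median-ratio factors. Of 13 fibroblast markers, 8 were in the table, with 4 lower and 4 higher and summed FPKM of 2609 to 2731 and 2654 to 2674. Endothelial markers, 2 of 9 in the table with 1 lower and 1 higher, summed to 5.87 to 6.45 and 7.10 to 8.06, and macrophage markers, 3 of 9 and all 3 higher, to 37.2 to 42.6 and 50.5 to 54.6. Of all genes tested, 60.1% were called lower and 39.9% higher with the authors' factors. None of the markers in the table had a count of 0 in any library, and markers outside it were not analysed here.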

How the data were processed

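The authors sequenced RNA of NRVCs from 3 libraries with ARVs and 3 with DMSO. Reads were mapped by them to rat release 97 with HISAT2, with transcripts from StringTie 1.3.3b. The program that counted reads is not given in the sources used here. The deposited table gives for 1756 genes the raw count per library, the count divided by a size factor of the authors (a normalized signal), the FPKM and the gene length in bases. The authors' fold changes and p-values, in columns of their own, were not used.

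Raw counts were tested in R 4.3.3 with edgeR 4.0.16 (filterByExpr, glmQLFit, glmQLFTest, Benjamini-Hochberg), scaled by the authors' size factors, which differ from factors computed on the listed genes alone. Alternatives were other scalings and DESeq2 1.42.0 with the authors', TMM and median-ratio factors, but not with FPKM totals. TMM and median-ratio factors with DESeq2 were chosen after seeing the data. Further alternatives were limma 3.58.1 on log2(FPKM + 1) and log2(FPKM + 0.1), 10 or more counts required in every library, no filter, each library left out, and a replicate block. The test was checked on simulated counts in which, unlike in the table, most genes were left unchanged. It recovered 32% of log2 changes of 0.2, about the size of the 6 falls, and 94% of changes of 0.5. Of its calls there, 6.32% were false. The named genes are the 7 genes, up to 15 other sarcomere genes and the myosin heavy chains in the table, and for each of the 7 the 2 genes most alike in pattern, of which 1 is not reported here. The members and lists were chosen with earlier results of these data known. Library totals were derived from counts, lengths and FPKM, which fitted one another to a relative 1e-06 for 1246 genes.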

Additional observations from a re-analysis of the deposited data

How the results depend on the processing

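The number of the 6 lower genes called fell from 6 to 0 with TMM factors and to 0 with median-ratio factors, both computed on the table, with edgeR and with DESeq2 alike. At an unadjusted p under 0.05, edgeR and DESeq2 found 1 and 2 of the 6 with TMM and 0 and 0 with median-ratio factors. With median-ratio factors the log2 fold changes in edgeR and DESeq2 were 0.0145 and 0.0145 for Myl3, 0.0215 and 0.0215 for Tnnc1, 0.0151 and 0.0149 for Nexn, 0.00306 and 0.00308 for Xirp1, and 0.0107 and 0.0107 for Hspb7. The other sarcomere genes called lower were then 3 in both tools rather than 8, and all genes called lower 536 in edgeR and 530 in DESeq2 rather than 1052. The cause was not tested beyond the shift of all fold changes that the factors bring.

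Leaving out each library in turn gave 4 to 6 of the 6 lower genes, while 985 to 1050 of all genes were called lower. The difference between the groups in the Myl4 to Myl3 log2 ratio then ranged from -0.0563 to 0.0109, above 0 without ARVs replicate 2. Myom2 was called under each alternative run. Libraries with the same replicate number did not deviate together in all 3 pairs (r = 0.0674, 0.328 and 0.119), and DMSO replicate 1 correlated best with ARVs replicate 3 (r = 0.212), so the numbers were not taken to pair the libraries. A fit with the replicate block called 1052 genes lower and 699 higher, and the same 6 and 1 of the 7 genes. Every gene tested was already called without the block, so these counts cannot show whether pairing matters. With the block the standard errors of Nexn and Fhl2 were smaller, and those of Myl3, Myl4, Tnnc1, Xirp1 and Myom2 larger.

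With 3 libraries per treatment, exact tests of single ratios cannot go below p = 0.1. The lowest raw count of the 7 genes in any library was 3668, for Myl4.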
